A study of Homo sapiens with 2 samples.

Results

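The ERBB receptors and their ligands were examined as 10 genes, of which 4 are receptors (EGFR, ERBB2, ERBB3 and ERBB4) and 6 are ligands (EGF, TGFA, AREG, EREG, HBEGF and BTC). Every probe set annotated to exactly 1 of these symbols was taken, which gave 33 of the 54675 probe sets on the array and covered 9 of the 10 genes. AREG, which encodes amphiregulin, had no probe set annotated to it alone and was not analysed here. The study compared 2 cultures under the label LN229, the name of an established glioblastoma line of human origin, kept in DMEM with serum. One carried the pSUPER.neo plasmid for expression of the microRNA miR-127-3p, while the second, the control, carried pSUPER.neo without it. Each culture was measured on 1 Affymetrix expression array from total RNA, so every difference below comes without replicates and without a p-value. The labels do not say how many clones or passages each culture represents. In such bulk RNA, fewer cells of a type cannot be told apart from less RNA per cell.

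The ERBB family consists of membrane tyrosine kinases that pair up when a ligand binds and pass the signal to the RAS-ERK and PI3K-AKT pathways. EGF, TGFA and AREG bind EGFR, while HBEGF, BTC and EREG bind both EGFR and ERBB4. ERBB2 has no known ligand of its own and acts as a partner, and ERBB3 has little kinase activity and signals through its partners. The ligands are made as membrane precursors that proteases release from the cell surface. EGFR is the family member most often amplified or mutated in glioblastoma.

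The agent of the study was the microRNA itself, printed here 5′ to 3′ from RefSeq (GRCh38.p14, chr14:100883035-100883056, plus strand) with its seed, bases 2 to 8, in capitals.
hsa-miR-127-3p: uCGGAUCCgucugagcuuggcu
Seed matches in member transcripts were not analysed here, and no measurement of the mature microRNA was used.

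Among the 6 member genes bright enough to be measured, EGFR and HBEGF had the highest ratios and EGF the lowest, and the regions around their transcription starts are therefore shown. Each is the RefSeq window of 250 bases before to 50 bases after the annotated start in GRCh38.p14, printed 5′ to 3′ on the gene's strand. Capitals mark 4 motifs on either strand, chosen with the sequences in view: the GC box GGGCGG, the repeat TCCTCC, the TATA box TATAAA and the AP-1 site TGACTCA.
EGFR, chr7:55018767-55019066, plus strand: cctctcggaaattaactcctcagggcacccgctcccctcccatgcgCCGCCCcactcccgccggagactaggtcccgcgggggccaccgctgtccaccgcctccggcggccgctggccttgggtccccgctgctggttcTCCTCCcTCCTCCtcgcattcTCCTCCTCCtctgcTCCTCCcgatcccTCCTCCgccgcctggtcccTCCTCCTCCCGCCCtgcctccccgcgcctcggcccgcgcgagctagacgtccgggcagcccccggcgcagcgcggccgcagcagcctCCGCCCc
HBEGF, chr5:140346554-140346853, minus strand: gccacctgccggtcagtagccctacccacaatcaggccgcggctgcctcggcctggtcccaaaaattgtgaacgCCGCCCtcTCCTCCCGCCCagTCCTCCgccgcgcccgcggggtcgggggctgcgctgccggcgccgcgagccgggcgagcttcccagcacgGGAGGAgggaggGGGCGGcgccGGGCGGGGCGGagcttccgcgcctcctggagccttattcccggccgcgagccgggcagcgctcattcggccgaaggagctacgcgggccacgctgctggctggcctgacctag
EGF, chr4:109912633-109912932, plus strand: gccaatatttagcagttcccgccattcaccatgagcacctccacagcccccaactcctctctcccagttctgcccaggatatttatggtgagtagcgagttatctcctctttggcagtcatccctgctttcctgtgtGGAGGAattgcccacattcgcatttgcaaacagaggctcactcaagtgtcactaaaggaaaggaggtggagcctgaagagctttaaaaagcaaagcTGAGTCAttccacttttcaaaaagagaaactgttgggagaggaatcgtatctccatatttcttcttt
The EGFR window was 75.3% G and C and held 33 CpG dinucleotides, 3 GC boxes and 8 copies of TCCTCC counted with overlaps, with neither TATAAA nor TGACTCA. One GC box of EGFR overlaps the last TCCTCC copy. The HBEGF window was about as rich in G and C as that of EGFR and held 38 CpG dinucleotides, 5 GC boxes and 3 copies of TCCTCC, one of which overlaps a GC box. The EGF window was poorer in G and C, with 46.7%, 4 CpG dinucleotides, no GC box, 1 TCCTCC and 1 AP-1 site on the reverse strand. For TGFA, at a log2 ratio of -0.33, one window was 75.3% G and C with 4 GC boxes and another 63.0% with none. The ERBB2 window was 60.7% G and C with no GC box. A relation between windows and ratios was not tested. Over all 35116 windows of the same length the median was 58.7% G and C with 14 CpG dinucleotides. Of these windows 45.0% held GGGCGG, 36.6% TCCTCC, 11.5% TATAAA and 4.95% TGACTCA. EGFR has a second annotated start inside the gene, whose window was 42.0% G and C and held 2 copies each of TATAAA and TGACTCA. Windows were matched for 9 of the 10 members, and a match of letters does not show that a factor binds there.

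Signals are given as deposited, in arbitrary units on a linear scale. A log2 ratio is the log2(signal + 1) with miR-127-3p minus that in the control, less the median over genes of 0.01, and the fold is that ratio taken out of the log. A probe set is called measured if the mean of its 2 log2 values exceeded the median for non-control probe sets, which corresponds to a signal near 83.0. The brightest measured probe set stood for its gene. No detection calls were used, so a dim signal may be background. The median signal was 83.3 on the miR-127-3p array against 93.9 on the control array. Between the measured probe sets of a gene, the log2 ratio had an SD of 0.46 per probe set, taken from 3293 genes with exactly 2 of them, and this holds no variation between cultures. Of the 33 probe sets 16 were measured, and they belonged to 6 genes. The other 3 genes with probe sets, ERBB4, EREG and BTC, had none that was measured.

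Epithelial markers also differed between these 2 arrays, which every value below compares. At the brightest probe set of each, 10 of 11 epithelial markers were brighter in the control. The same count over all genes was not made. The signals of the 11 summed to 7776 with miR-127-3p against 93910 in control cells, where KRT18 gave 44863 and KRT8 16926 of the control sum. Of the 7 measured markers, 4 (EPCAM, KRT19, DSP and ESRP1) passed the filter through the control array alone, so no count of folds is given for this list. EPCAM, the epithelial adhesion molecule, read 30.2 with miR-127-3p against 9181 in control cells. On the miR-127-3p array 8 of the 11 markers were below the array median, and in the control 2 were. The part of this difference in the values of EGFR, ERBB3, EGF and the other genes named below was not tested. That the 2 cultures are of 1 cell line was not tested either, so a difference between lines and a difference made by the microRNA cannot be told apart here. Of 12 glial and glioma markers, 8 were above the median on both arrays, with vimentin (VIM) at 48866 with miR-127-3p against 45584 in control cells. GFAP, the astrocyte filament, AQP4 and CHI3L1 were below it on both. Of the 9 measured glial and glioma markers 2 were at least 2-fold lower, beside 8.67% of all measured genes. SLC1A3 passed the filter through the miR-127-3p array alone, so no count of higher genes is given. SLC1A3, a glial glutamate transporter, read 2689 with miR-127-3p against 73.9 in control cells, at least 28.1-fold higher against the control median. SOX2 and NES, genes of neural progenitors, were 2.37-fold and 2.04-fold lower. The reference genes GAPDH and ACTB had log2 ratios of 0.02 and 0.05.

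The receptor EGFR was higher and the ligand EGF lower with miR-127-3p, and the other 4 measured genes stayed within 2-fold. At the brightest probe set EGFR was 3.96-fold higher and EGF 4.66-fold lower. HBEGF was 1.70-fold higher and ERBB3 1.66-fold lower, while ERBB2 and TGFA had log2 ratios of 0.08 and -0.33. Thus 1 of the 6 measured genes was at least 2-fold higher, beside 5.06% of all 11985 measured genes, and 1 was at least 2-fold lower, beside 8.67%. The median over the 6 genes was -0.12, against 0 by construction over all genes. In the order EGFR, HBEGF, ERBB2, TGFA, ERBB3 and EGF, the gaps between neighbours were 1.22, 0.68, 0.41, 0.40 and 1.49. A difference between 2 such ratios has an SD of 0.65 from the probe set spread alone. The gaps on either side of TGFA were smaller than this, that between HBEGF and ERBB2 was of the same size, and those below EGFR and above EGF were larger. The gap below EGFR rests on its brightest probe set. With the mean of measured probe sets EGFR was at 0.94 and HBEGF at 0.64, and the measured EGFR probe sets alone had an SD of 0.85.

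**Figure D1:**
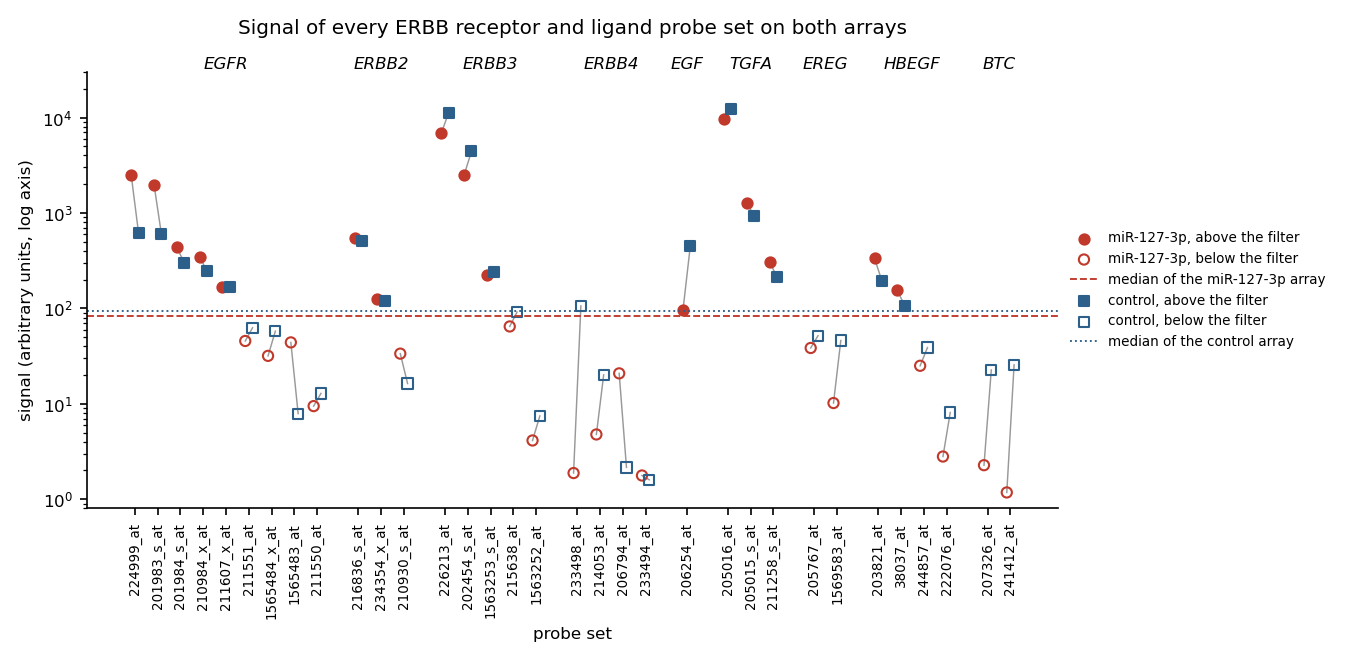
Signal of each of the 33 probe sets of the ERBB receptors and ligands (log axis, arbitrary units), with the miR-127-3p array as red circles and the control array as blue squares, 1 array each. Filled symbols are measured probe sets, open symbols lie below the filter, and lines mark the array medians of 83.3 and 93.9. The 2 brightest EGFR probe sets stand higher with miR-127-3p, the EGF probe set and the 2 brightest of ERBB3 stand lower, and all probe sets of ERBB4, EREG and BTC are open.

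EGFR, the receptor for the EGF-type ligands, was read by 9 probe sets, the most of any member, and they did not agree on the size of the difference. Probe set 224999_at read 2472 with miR-127-3p against 618 in control cells, a log2 ratio of 1.99. Probe set 201983_s_at read 1974 with miR-127-3p against 607 in control cells, a log2 ratio of 1.69. These are the 2 brightest EGFR probe sets, and both were more than 3-fold higher. The next 2 showed a smaller difference in the same direction. Probe set 201984_s_at read 437 with miR-127-3p against 302 in control cells, a log2 ratio of 0.52, and 210984_x_at read 349 with miR-127-3p against 244 in control cells, a log2 ratio of 0.50. Probe set 211607_x_at read 169 with miR-127-3p against 167 in control cells, so that its ratio of 0.0061 was close to 0. By Affymetrix naming an _s_at probe set can match several transcripts and an _x_at probe set can match other sequences too.

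The remaining 4 EGFR probe sets were below the median of both arrays. Probe set 1565483_at read 44.0 with miR-127-3p against 7.88 in control cells, 211551_at read 45.5 with miR-127-3p against 62.7 in control cells, 1565484_x_at read 31.8 with miR-127-3p against 57.7 in control cells, and 211550_at read 9.46 with miR-127-3p against 12.8 in control cells. One of these dim probe sets was brighter with miR-127-3p and 3 were dimmer, and no fold is given for them. Which EGFR transcripts each probe set reads was not analysed here.

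Across the 5 measured EGFR probe sets the log2 ratio had a mean of 0.94, a median of 0.52 and an SD of 0.85 (n = 5 probe sets, not replicates). Of the 5, 2 passed 2-fold, while 5.28% of all measured probe sets of single genes were higher by that much. The range of 1.98 from the lowest to the highest was wider than is usual for a gene: among 263 genes with 5 measured probe sets the median range was 0.87, and 11 of them, or 4.18%, EGFR included, had a range at least this wide. The ratio was smaller at each dimmer probe set in this series of 5. If the mean of the measured probe sets stands for the gene in place of the brightest, EGFR is below the 2-fold threshold, at 0.94. With its brightest probe set, 109 of the 11985 measured genes had a higher ratio than EGFR.

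**Figure D2:**
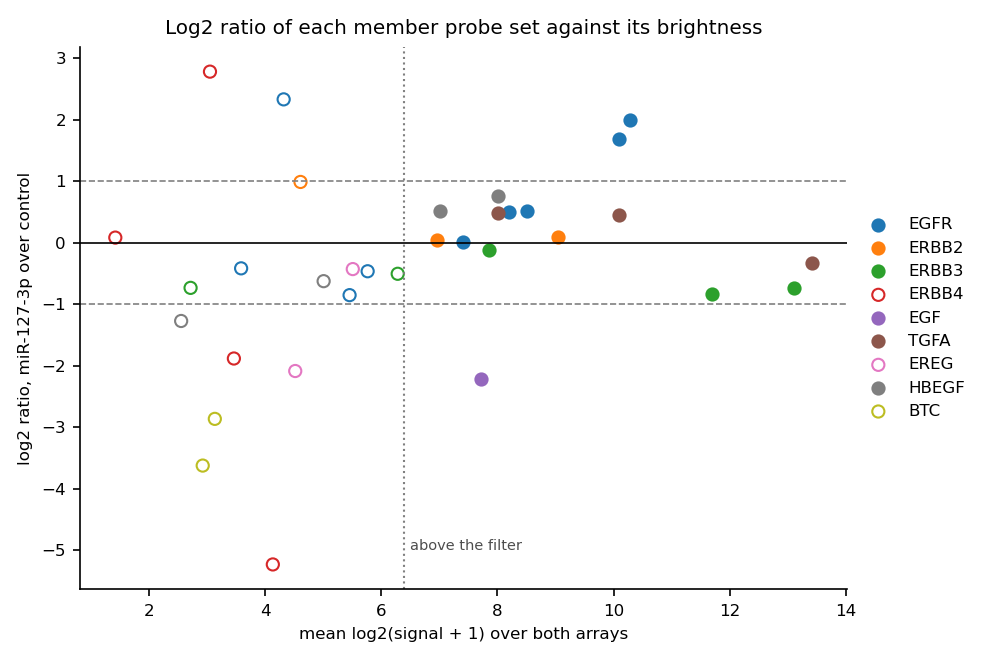
Log2 ratio of miR-127-3p over control for each of the 33 member probe sets against its mean log2(signal + 1), with 1 colour per gene. Filled points are measured, open points are below the filter marked by the dotted line, and dashed lines mark 2-fold. Measured EGFR points run from 0.0061 to 1.99, the 3 ERBB3 points all lie below 0, and open points scatter most widely, from -5.23 to 2.78.

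ERBB2, the receptor without a ligand of its own, differed little between the arrays. Probe set 216836_s_at read 543 with miR-127-3p against 507 in control cells, a log2 ratio of 0.08, and 234354_x_at read 125 with miR-127-3p against 120 in control cells, a log2 ratio of 0.05. The third, 210930_s_at, was dim, at 33.5 with miR-127-3p against 16.3 in control cells. Both measured ERBB2 ratios were smaller than the probe set SD of 0.46, which holds no variation between cultures.

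ERBB3, the receptor for neuregulins with little kinase activity, was dimmer with miR-127-3p at all 5 of its probe sets. Probe set 226213_at read 6837 with miR-127-3p against 11251 in control cells, a log2 ratio of -0.73. Probe set 202454_s_at read 2503 with miR-127-3p against 4408 in control cells, a log2 ratio of -0.83. These 2 bright probe sets gave nearly the same ratio, and neither reached 2-fold. Probe set 1563253_s_at read 221 with miR-127-3p against 240 in control cells, a log2 ratio of -0.13. The dim 215638_at read 64.7 with miR-127-3p against 91.5 in control cells, and 1563252_at read 4.13 with miR-127-3p against 7.46 in control cells. Of all measured genes 13.6% had a lower ratio than ERBB3.

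ERBB4, a receptor for neuregulins and for several EGF-type ligands, had no measured probe set. Probe set 233498_at read 1.88 with miR-127-3p against 106 in control cells, the only ERBB4 signal above an array median. With the array median of 83.3 in place of its miR-127-3p signal, that probe set was 1.28-fold lower. A probe set at the medians of both arrays would be 1.13-fold lower by the same rule, so no direction is given for ERBB4. The others disagreed in direction: 206794_at read 20.8 with miR-127-3p against 2.15 in control cells, 214053_at read 4.77 with miR-127-3p against 20.1 in control cells, and 233494_at read 1.77 with miR-127-3p against 1.60 in control cells. All of these 6 signals were below the medians.

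Among the ligands, EGF, the founding member, was lower with miR-127-3p. Its only probe set, 206254_at, read 96.9 with miR-127-3p against 452 in control cells, a log2 ratio of -2.22. The miR-127-3p signal lay just above that array's median, and with 1 probe set no agreement could be assessed. Of all measured genes 278, or 2.32%, had a lower ratio. EGF was the 1 measured member probe set at least 2-fold lower, beside 8.08% of all measured probe sets.

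TGFA, which encodes transforming growth factor alpha, a ligand that glioma and carcinoma cells often make, had 3 measured probe sets on both sides of 0. Probe set 205016_at read 9755 with miR-127-3p against 12144 in control cells, a log2 ratio of -0.33. In the other direction 205015_s_at read 1276 with miR-127-3p against 931 in control cells, a log2 ratio of 0.44, and 211258_s_at read 304 with miR-127-3p against 215 in control cells, a log2 ratio of 0.49. As the signs differ, no direction is given for TGFA. The TGFA range of 0.81 and the ERBB3 range of 0.70 both exceeded the median range of 0.55 among 1586 genes with 3 measured probe sets, but the 3 ERBB3 ratios share a sign.

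HBEGF, the heparin-binding ligand of EGFR and ERBB4, was brighter with miR-127-3p at both measured probe sets. Probe set 203821_at read 335 with miR-127-3p against 195 in control cells, a log2 ratio of 0.77. Probe set 38037_at read 154 with miR-127-3p against 107 in control cells, a log2 ratio of 0.51. Neither reached 2-fold. Of all measured genes 9.11% had a higher ratio than HBEGF. The dim 244857_at read 25.0 with miR-127-3p against 38.8 in control cells, and 222076_at read 2.80 with miR-127-3p against 8.11 in control cells.

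EREG, epiregulin, and BTC, betacellulin, were below both array medians at every probe set. For EREG, 205767_at read 38.5 with miR-127-3p against 51.7 in control cells, and 1569583_at read 10.2 with miR-127-3p against 46.1 in control cells. For BTC, 207326_at read 2.27 with miR-127-3p against 22.6 in control cells, and 241412_at read 1.18 with miR-127-3p against 25.6 in control cells. All 4 probe sets were dimmer with miR-127-3p, and as all 8 signals lie under the medians no fold is given. EREG, AREG and BTC lie close to one another on chromosome 4 together with EPGN, a further ligand gene, while EGF lies elsewhere on that chromosome. EPGN also had no probe set annotated to it alone.

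By gene, 3 of the 6 measured members had ratios above 0 and 3 below, beside a median of 0 by construction over all genes. Probe sets are not counted by direction here, as the same counts over all probe sets of the array were not made. Whether these members differ from the rest was not tested. The median signal of the miR-127-3p array, 83.3, was lower than the 93.9 of the control array. A probe set at both medians would have a log2 ratio of -0.18. The part of this gap in the ratios of the dim probe sets was not tested. Of the 17 dim probe sets 16 were below the medians of both arrays.

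**Figure D3:**
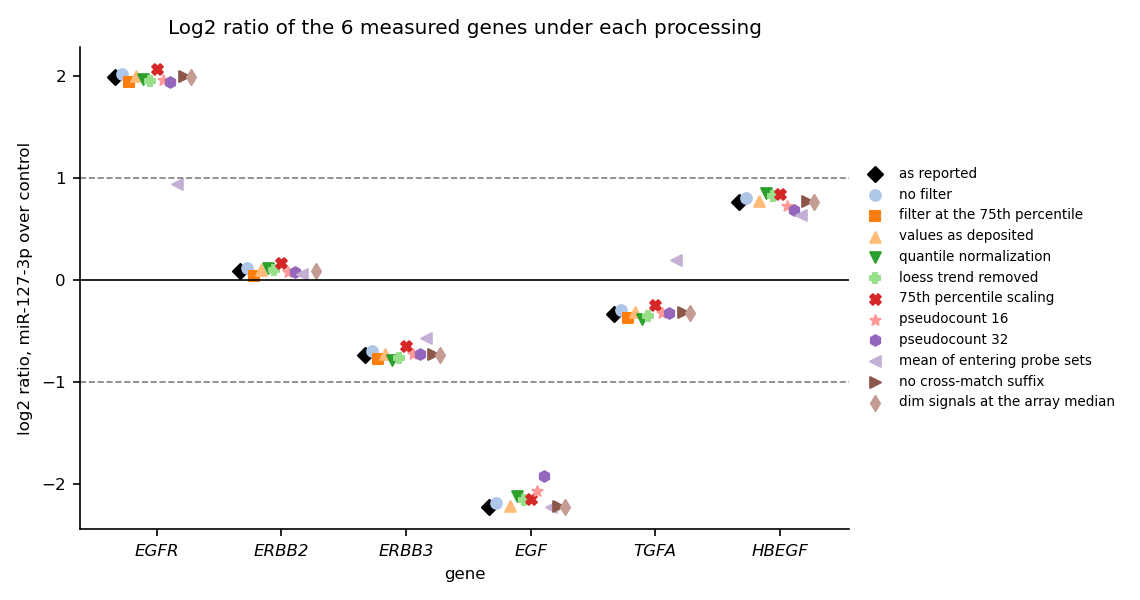
Log2 ratio of miR-127-3p over control for the 6 measured genes as reported (black diamonds) and under each alternative processing that changes the value of a single gene (other symbols), with dashed lines at 2-fold. EGFR drops to 0.94 and TGFA changes side to 0.20 when the mean of all measured probe sets is used, and EGF stays at or below -1.92 under every alternative that kept it.

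The other ligands of the family are EPGN and the neuregulins, and the neuregulins bind ERBB3 and ERBB4. Of the 5 other ERBB ligand genes 4 had a probe set and 2 were measured. Their control signals were below the array median, so both passed the filter through the miR-127-3p array alone and no count of folds is given. NRG1 read 210 with miR-127-3p against 54.1 in control cells at 206343_s_at and was at least 2.21-fold higher against the control median. Its 5 dimmer probe sets lay on both sides of 0, from -2.03 to 0.86, so the NRG1 difference rests on 1 of 6 probe sets. NRG2 read 238 with miR-127-3p against 84.6 in control cells at 206879_s_at, at least 2.50-fold higher, and 176 with miR-127-3p against 103 in control cells at 242303_at, a log2 ratio of 0.76. NRG3 and NRG4 were below the medians of both arrays.

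Of 6 measured ligand shedding genes 1 was at least 2-fold lower, where 8.67% of all genes were, and none was higher. RHBDF2, an inactive rhomboid protein that carries the sheddase ADAM17 to the cell surface, read 175 with miR-127-3p against 490 in control cells, 2.81-fold lower at its only probe set. ADAM17 itself had a log2 ratio of 0.03, and ADAM10, the other main sheddase, one of 0.32. The list median was -0.14. None of 8 measured genes of receptor endocytosis and sorting passed 2-fold at its brightest probe set. STAM2, which sorts ubiquitinated receptors at endosomes, had the highest ratio, 0.90, and RAB5A, a GTPase of early endosomes, the lowest, -0.52. Dimmer measured probe sets of both passed 2-fold. Those of STAM2 ran from 0.31 to 1.11, and those of RAB5A were at -0.24 and -1.37. The list median was 0.19.

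Of 11 measured receptor inhibitors and phosphatases 1 was at least 2-fold higher and 1 lower, shares near the 5.06% and 8.67% of all genes, and the median was -0.15. LRIG1, a membrane protein that promotes the breakdown of ERBB receptors, read 232 with miR-127-3p against 669 in control cells, 2.89-fold lower. Its other 3 probe sets were dim and also lower. LRIG3, a related protein, read 419 with miR-127-3p against 202 in control cells, 2.05-fold higher. ERRFI1, a cytoplasmic inhibitor of EGFR that is induced by its signalling, had a log2 ratio of 0.23, and the ubiquitin ligase gene CBL one of -0.46. ERRFI1 and CBL were named after their values were seen, as was ADAM17 with ADAM10.

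Adaptors and downstream kinases stayed mostly within 2-fold, with a median of -0.04. Of 19 measured genes none was at least 2-fold higher, where 5.06% of all genes were. GRB7 passed the filter through the control array alone, so no count of lower genes is given for this list. GRB7, an adaptor that binds ERBB receptors, read 50.5 with miR-127-3p against 216 in control cells, at least 2.60-fold lower against the array median. GAB2, a docking protein of the PI3K pathway, read 550 with miR-127-3p against 1145 in control cells, 2.10-fold lower. The other 8 genes of this list were not analysed here. ERK output genes, whose transcription follows ERK activity, were at least 2-fold higher for 1 of 14, beside 5.06% of all genes, and lower for 3, beside 8.67%, with a median of -0.25. DUSP4, a phosphatase that turns ERK off, read 8769 with miR-127-3p against 3284 in control cells and was 2.65-fold higher. MYC read 578 with miR-127-3p against 6931 in control cells, 12.1-fold lower. EGR1, an immediate early transcription factor, was 2.35-fold lower, and PHLDA1 was 2.28-fold lower with all 6 of its probe sets on that side.

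**Figure D4:**
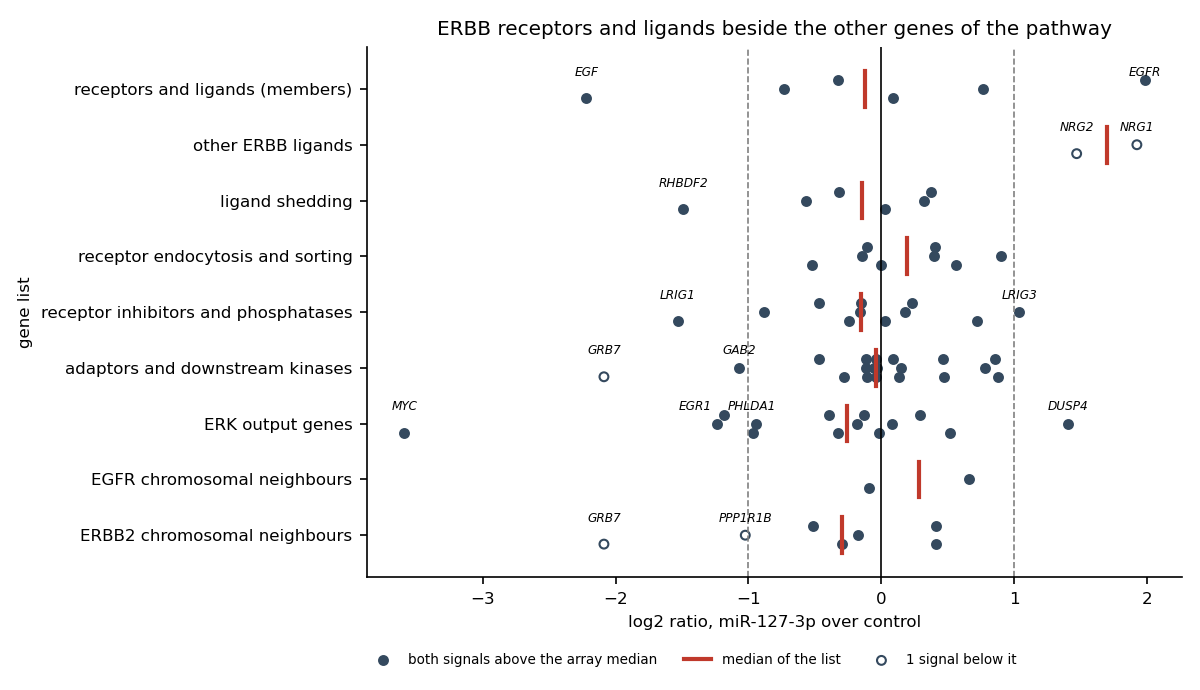
Log2 ratio of miR-127-3p over control of the brightest measured probe set of each gene, by gene list, with dashed lines at 2-fold and red bars at list medians. Open points have 1 signal below its array's median, where the plotted ratio can overstate or understate the difference. EGFR and EGF lie outside the 2-fold lines, and of the lists with more than 2 measured genes, medians run from -0.30 for the ERBB2 neighbours to 0.19 for receptor endocytosis and sorting.

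The 2 measured chromosomal neighbours of EGFR had ratios below those of its 2 brightest probe sets, and LANCL2 had ratios above those of its other 3 measured ones. LANCL2, the neighbour on one side that is often amplified with EGFR in glioblastoma, read 976 with miR-127-3p against 612 in control cells at 218219_s_at, a log2 ratio of 0.66, and its second measured probe set had one of 0.63. VOPP1, beyond it, read 5959 with miR-127-3p against 6294 in control cells, a log2 ratio of -0.09. VSTM2A, on the other side, was dim on both arrays, and SEC61G had no probe set annotated to it alone. Next to ERBB2 on chromosome 17, 7 neighbours were measured. Of these, PPP1R1B and GRB7 passed the filter through the control array alone, so no count of folds is given for this list. The limit given below for PPP1R1B is under 2-fold. MIEN1 and PGAP3, on either side of ERBB2, both had a log2 ratio of 0.41. PNMT had a log2 ratio of -0.30, STARD3 one of -0.51 and CDK12 one of -0.17. PPP1R1B read 60.8 with miR-127-3p against 124 in control cells, at least 1.49-fold lower, and GRB7 is given above. TCAP and IKZF3 were below the medians of both arrays.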

How the data were processed

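Total RNA of 1 culture per group was labelled with an Affymetrix 3′ kit and hybridised, per the labels' protocols. The authors deposited 1 linear signal intensity per probe set and array. Both arrays had a mean of 500.1 after 2% of probe sets was trimmed at each end, so they share a scale. The software behind the signals is not given in the sources used here.

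Probe sets were named from the platform annotation: 41091 had 1 symbol, 1801 several and 11721 none, and symbols were updated through Entrez identifiers to RefSeq (GRCh38.p14), which held 99.9% of them. The genotype labels gave the groups. The filter, the choice of probe set and the log2 ratio with a pseudocount of 1 are described with the results. The pseudocount makes the fold of a dim gene too small. Where the dimmer signal was below its array's median, that median replaced it and the fold is a lower limit. With 1 array per group no test was possible, and genes past 2-fold were counted.

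The 10 members and all gene lists were chosen with earlier results of these data known. Named were all member probe sets, up to 4 genes per direction past 2-fold of each other list, otherwise its highest and lowest gene, all measured chromosomal neighbours, GAPDH and ACTB. Marker genes for other cell types were named after their values were seen. The 13 alternatives were other thresholds, filters, centrings and pseudocounts, the mean of probe sets, probe sets without a cross-match suffix and a floor at the array median. On simulated arrays with 12006 measured genes, all 50 genes made 4-fold higher and all 50 made 4-fold lower were counted as past 2-fold. The count took in 53.1% of genes simulated at exactly 2-fold higher, 44.0% of those at exactly 2-fold lower and 2.72% of 11807 unchanged ones. The simulated noise had only the probe set SD of 0.46 and no variation between cultures. These shares are therefore not error rates of the real comparison. Python 3.11.15, numpy 2.4.6, pandas 2.3.3, statsmodels 0.14.6 and matplotlib 3.10.9 were used.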

Additional observations from a re-analysis of the deposited data

How the results depend on the processing

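No paired analysis was possible because each group has 1 array, and for the same reason no array could be left out. The 1 gene at least 2-fold higher, EGFR, was counted under all alternatives except the mean of all measured probe sets, which gave 0 genes, and a 1.5-fold threshold added HBEGF for a count of 2. The 1 gene at least 2-fold lower, EGF, became 2 with ERBB3 at a 1.5-fold threshold, 3 with ERBB4 and BTC when no filter was used, both from signals near background, and 0 with the filter at the 75th percentile, which left out EGF and HBEGF. The median over members ranged from -0.39 without a filter to 0.13 with the mean of probe sets. Over the alternatives that change single values, EGFR ranged from 0.94 to 2.07, HBEGF from 0.64 to 0.85, ERBB2 from 0.04 to 0.17, TGFA from -0.38 to 0.20, ERBB3 from -0.79 to -0.56 and EGF from -2.22 to -1.92. TGFA was above 0 under 1 of 11 alternatives, the mean of probe sets. Signal over background limits ERBB4, EREG and BTC. EREG and BTC got no fold, and ERBB4 got a limit at 1 of 4 probe sets and no direction.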
